A study of Schizosaccharomyces pombe with 384 samples.

Results

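The ribosome biogenesis factor genes of fission yeast *S. pombe* were taken by name, as the genes of the deposited expression table whose names are a stem in use for such factors (nop, utp, noc, nog, dbp, rpf, tsr, rlp, enp, ebp, bms, brx, nsa, rix, krr, nip, nob or ltv) followed by a number. Of the 7259 genes of the table, 57 had such a name. Their transcripts were read by 3′ mRNA-Seq, in which a short tag near the 3′ end of each polyadenylated transcript is sequenced, in 94 strains that each lack 1 gene and in wild type. The strains came from the haploid knockout library of Bioneer, and all strains, wild type included, grew with shaking in YES, a rich medium of yeast extract and glucose with adenine, histidine, leucine, uracil and lysine, at 32 °C. Each deletion strain had 4 libraries, and wild type had 8 from a pair of plate wells, A1 and A2. The deletion strains were picked by the study across the range of altered proteins, and 19 of them lack a cytosolic ribosomal protein (16 of the large and 3 of the small subunit) against 75 that lack another gene. Each strain stands for a single entry of the library, and the sources used here do not say whether its libraries came from separate clones, so that p-values measure the spread between these libraries.

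Ribosomes are assembled in the nucleolus from a long ribosomal RNA precursor made by RNA polymerase I, the ribosomal proteins and a large set of assembly factors that leave before the ribosome is mature. The small subunit factors include the UTP proteins, which load onto the precursor with the U3 snoRNA and form the small subunit processome. Large subunit factors such as Nog1, Nip7, Ebp2 and Brx1 accompany the 60S precursor through the nucleolus and nucleoplasm, and the DBP proteins are mostly RNA helicases of the DEAD box family. In yeasts, the genes of these factors are known to be expressed together in growing cells. By known role, 29 of the 57 genes serve the small subunit, 22 the large subunit and 3 encode core proteins of the snoRNPs that modify ribosomal RNA (*nop56*, *nop58* and *nop10*). The other 3 met the name rule but are best known for something else: *rlp1* encodes a RecA family protein of DNA repair, *dbp5* a helicase of mRNA export and *dbp2* a helicase with roles in several steps of RNA metabolism.

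The promoters of 3 members are shown as the exceptions that hold 1 or more of the sequence elements searched, since most members' promoters held none of them. They are the 250 bases before the RefSeq transcript start (assembly ASM294v3), 5′ to 3′ on the strand of the gene, at chrI:1712535-1712784 (+) for *rlp7*, chrIII:1978533-1978782 (-) for *utp23* and chrII:4380167-4380416 (+) for *nop16*. Capitals mark matches to homolD (CAGTCACA) and homolE (CCCTACCC), known from ribosomal protein promoters of *S. pombe*, and to the cores of PAC (GATGAG) and RRPE (AAAATTTT), known from ribosome biogenesis promoters of *S. cerevisiae*. Each was searched on both strands, and none of these letter strings is contained in another.
rlp7: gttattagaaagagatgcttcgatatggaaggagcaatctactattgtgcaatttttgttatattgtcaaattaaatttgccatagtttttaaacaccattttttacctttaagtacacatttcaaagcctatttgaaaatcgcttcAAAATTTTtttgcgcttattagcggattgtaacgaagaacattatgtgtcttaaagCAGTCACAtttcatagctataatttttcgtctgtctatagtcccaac
utp23: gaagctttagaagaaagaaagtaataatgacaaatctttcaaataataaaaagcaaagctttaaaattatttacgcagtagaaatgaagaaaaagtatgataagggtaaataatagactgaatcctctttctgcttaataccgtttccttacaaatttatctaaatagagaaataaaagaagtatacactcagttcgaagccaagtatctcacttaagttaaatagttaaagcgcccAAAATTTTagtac
nop16: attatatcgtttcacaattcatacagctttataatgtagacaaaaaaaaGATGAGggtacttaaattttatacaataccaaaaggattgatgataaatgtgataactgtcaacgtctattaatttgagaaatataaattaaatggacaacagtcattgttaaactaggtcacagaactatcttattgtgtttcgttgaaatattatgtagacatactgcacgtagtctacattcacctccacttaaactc

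Of the 57 members, 53 had an annotated 5′ UTR in RefSeq and were searched. The homolD letters stood in 1 of the 53 promoters (1.89%, *rlp7*), in 61.9% of 134 ribosomal protein promoters and in 2.86% of the 4511 promoters of all protein-coding genes with such an annotation. HomolE was in 0 of 53, in 34.3% of the ribosomal protein promoters and in 1.71% of all. The RRPE core was in 8 of 53 (15.1%; *ltv1*, *rlp7*, *utp7*, *utp22*, *dbp2*, *nop2*, *utp23* and *rix1*), against 6.72% of ribosomal protein promoters and 7.20% of all, and the PAC core was in 3 of 53 (5.66%; *tsr3*, *nop16* and *enp2*), against 5.97% and 7.07%. The shares are descriptions of these letters in this window, which depends on the annotated start. In the deposited coordinates *nop16* starts at 4380239 and *utp23*, on the - strand, at 1978642. Part of both printed windows thus lies inside the gene as deposited.

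Reads on genes ranged between 1337656 and 2659644 per library, and no library had fewer than 3 reads for any member. The values are CPM, reads scaled by the authors, which do not grow with transcript length in 3′ mRNA-Seq. The scaling was not by the reads on genes alone. The library size it implies was between 0.768 and 1.45 times the reads on genes. The median of this factor was 0.906 over the wild-type libraries and higher over those of the deletion strains. The deposited CPM had lost their decimal points, which were restored from the whole read steps of each library, and 12.6% of the 21888 member values had more than 1 possible place for the point. As a check of the labels, the transcript of the deleted gene was below all wild-type libraries in all 4 libraries of 27 strains, overlapped wild type in 53 and was above it in 14. Strains keep the name on their label here, and of those named below it was above wild type in the libraries labelled hcr1Δ, SPBC3E7.05cΔ, amo1Δ, dbr1Δ and swd3Δ and overlapped it in those labelled SPBC16A3.17cΔ, rpl3201Δ, rrp7Δ, SPBC17A3.06Δ, rpl1602Δ, sft1Δ, cbf11Δ and apl2Δ. Where the 3′ tag lies relative to the removed stretch is not given in the sources used here, and a tag outside it checks nothing. The members differed with the replicate number in the labels: taking for each library the median over the 57 members of log2 (CPM / wild-type mean), the middle library of the 75 other deletion strains was at -0.33, -0.36, 0.09 and 0.30 for numbers 1 to 4, and the wild-type medians were -0.13, -0.12, 0.17 and 0.22. These wild-type medians rest on 1, 3, 2 and 2 libraries, and those of number 2 ran between -0.46 and -0.09. Between the wild-type wells A1 and A2, 0 of 57 members were called and 0 had p under 0.05 (limma), against 0.164% of all genes called and 128 genes with p under 0.05. In the deposited coordinates 8 members overlap another gene on the same strand and 29 on the other strand, and whether the counting used strand is not given in the sources used here.

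In wild type the members' means lay between 386 and 11.3 CPM. The highest was *nog1*, which encodes a GTPase of the 60S precursor, with a lowest, median and highest library of 307, 384 and 475 CPM and a mean of 386 ± 54.9 CPM (SD, n = 8 here and in the next sentences). *nop56* and *nop58*, core proteins of the box C/D snoRNPs that guide ribosomal RNA methylation, averaged 335 ± 98.8 and 278 ± 57.3 CPM, and *nop10* of the box H/ACA snoRNPs that guide pseudouridylation averaged 252 ± 25.3 CPM. All 3 snoRNP core genes were thus among the 10 highest members. The large subunit factors *nip7* (median of 282 CPM), *dbp3* (272 ± 72.6 CPM), *rlp7* (220.0 ± 66.1 CPM) and *rlp24* (137 ± 15.8 CPM), the helicase gene *dbp2* (277 ± 36.7 CPM) and the small subunit factor *enp1* (143 ± 31.7 CPM) were the others. At the low end stood the helicase genes *dbp7* (22.9 ± 5.88 CPM) and *dbp8* (18.3 ± 6.89 CPM), *utp13* of the small subunit processome (18.6 ± 3.22 CPM), *nop8* (17.8 ± 3.77 CPM) and *rlp1* (mean 11.3 CPM, 8.08 to 15.0 CPM over the libraries). Neighbours in this order such as *dbp8*, *utp13* and *nop8*, or *nop58*, *dbp2* and *dbp3*, did not differ beyond their spread. The median wild-type mean was 57.5 CPM over the small subunit members, 76.3 CPM over the large subunit members and 278 CPM over the snoRNP core members.

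**Figure D1:**
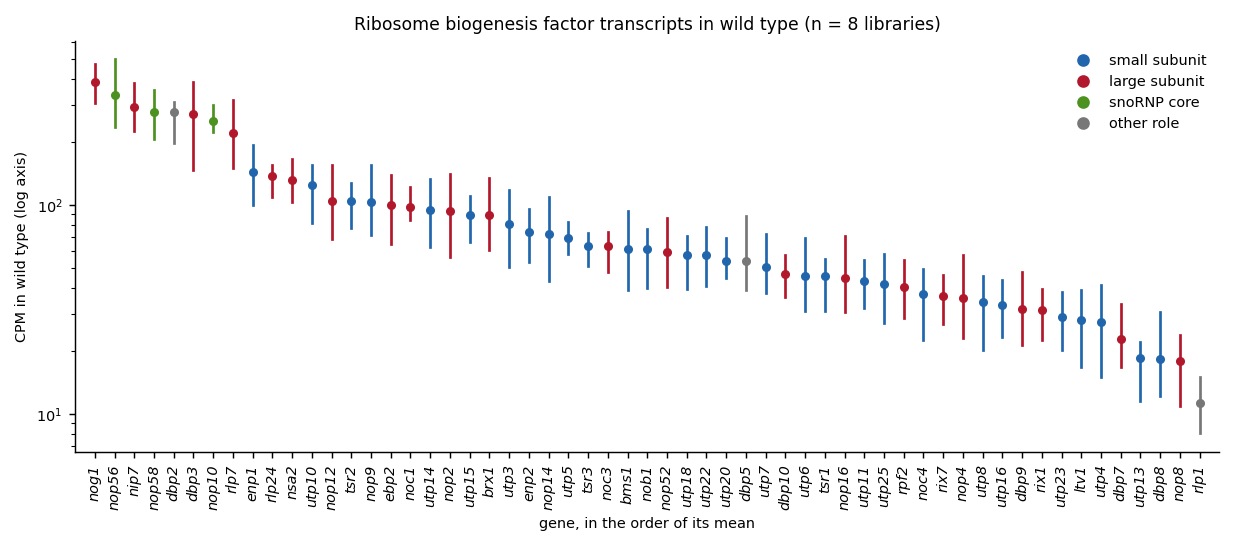
Level of each of the 57 transcripts in wild type, in CPM on a log axis. Points are means and lines run between the lowest and highest of 8 libraries, coloured by class, with *nog1* highest at 386 CPM and *rlp1* lowest at 11.3 CPM.

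Each deletion strain was compared with wild type to ask which transcripts change when the gene is lost. Members were called more often higher than lower, most of the calls came from a few strains, and 64 of the 94 strains had no member called. A transcript was called where its log2 fold change was at least 0.6 in size with p of at most 0.005 (limma, 4 against 8 libraries). Of 5358 pairs of a member and a strain, 161 were called higher (3.00%) and 28 lower (0.523%), where 10877 of the 514511 pairs of any gene and a strain were higher and 7552 lower. In the 16 large subunit deletions 86 of 912 member pairs were higher (9.43%) and 14 lower (1.54%), against 3.23% and 2.72% of all genes in the same strains, and in the 3 small subunit deletions 12 of 171 were higher (7.02%) and 0 lower, against 2.38% and 1.65%. In the 75 other deletions 63 of 4275 were higher (1.47%) and 14 lower (0.327%), against 1.87% and 1.19% of all genes, so that the share of higher members was not above the background there. With a Benjamini-Hochberg adjusted p below 0.05 at the same fold change, 178 were higher and 20 lower, against 1.76% and 1.19% of all genes. The 94 comparisons share the same 8 wild-type libraries, and the test takes no account of the replicate number. Of the pairs of samples with the same number, 88.3% had r above 0.1. At least 1 member was higher in 20 strains and lower in 12. Across strains, 31 members were higher in at least 1 strain, 16 were lower in at least 1 and 17 were called in none. The share of all genes called in at least 1 strain is not given here, so nothing is read from these counts.

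The split between directions moved with the scaling, with the libraries used and with the replicate number as a block in the fit. The counts with that block stand in the last section. Of the calls on the deposited scaling 85.2% were higher, and 83.1% were higher after each library was centred on its median (143 higher, 29 lower). With reads divided by the reads on genes it was 98.7% (366 higher, 5 lower), but this scaling moved the median of all genes by 0.14 (median over strains, log2) and by up to 0.52 in 1 strain. It differs from the deposited scaling by the library factor given above, which was lower in wild type than in the deletion strains by median. Which of these scalings is nearer to the true levels was not tested. Relative to the median of all genes, the members' median was above 0 in 35 of 94 strains, 15 of them ribosomal protein deletions, under each of the 3 scalings. The number of higher calls ran between 104 and 198, and of lower calls between 13 and 113, when 1 of the strain replicate numbers or 1 wild-type library was left out. The 113 lower calls were those without strain replicate 4, whose libraries read high in wild type too, and 47 were called without the library titled wt2 with number 2 (well A2), which was the lowest of wild type at -0.46. The higher calls that go with the 113 are not given here. Shares of all genes called are not given for these scalings and left-out libraries either, so the counts describe the members only.

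**Figure D2:**
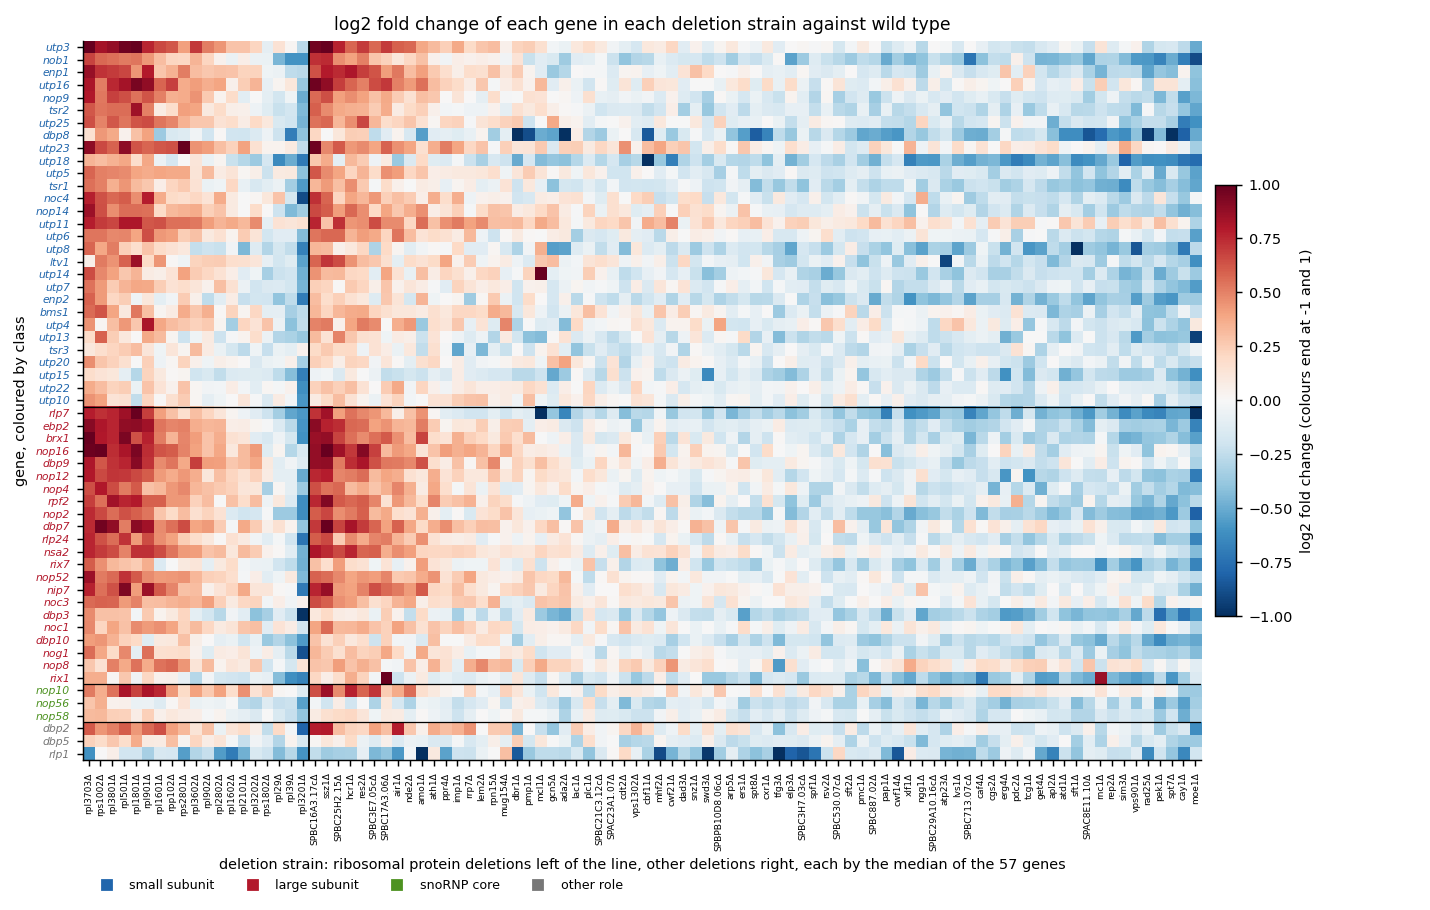
Heatmap of the log2 fold change of each of the 57 genes (down, by class) in each of the 94 deletion strains (across) against wild type, with colours ending at -1 and 1. Ribosomal protein deletions stand left of the vertical line and other deletions right of it, each ordered by the median of the 57 genes, and red fills most of the columns next to the left ends of both blocks.

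The strains with most members called higher were rpl3703Δ (25 of 57), SPBC16A3.17cΔ (21), ssz1Δ (18) and rpl501Δ (17). rpl3703 and rpl501 encode proteins of the large subunit, and ssz1 encodes a chaperone of the HSP70 family bound to ribosomes. The background of genes called higher was 4.84% of all genes in rpl3703Δ, 8.66% in SPBC16A3.17cΔ, 7.42% in ssz1Δ and 6.3% in rpl501Δ. The deleted transcript was at 15.4 ± 3.94 CPM in rpl3703Δ against 3003 ± 366 CPM in wild type, at 70.5 ± 17.6 CPM in ssz1Δ against 428 ± 61.9 CPM and at 333 ± 213 CPM in rpl501Δ against 4763 ± 641 CPM (SD, n = 4 and 8). In the libraries labelled SPBC16A3.17cΔ it was not lower, at 38.1 ± 3.10 CPM against 33.7 ± 7.30 CPM in wild type. Counts of ribosomal protein genes with near-identical copies are uncertain, since reads can be split between the copies. The median log2 fold change over the 57 members was 0.59 in rpl3703Δ, 0.57 in SPBC16A3.17cΔ, 0.52 in ssz1Δ and 0.49 in rpl501Δ, where the median of all genes was at most 0.04, and between 53 and 56 of the 57 members were above 0.

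*nip7* (SPCC320.11c, chromosome III, 144336 to 145562, + strand, ASM294v2 as in the deposited table), which encodes a factor for 27S precursor processing, was called in all 4 of these strains. It had 478, 582, 520 and 416 CPM in rpl3703Δ and 544, 437, 580 and 430 CPM in the libraries labelled SPBC16A3.17cΔ, against a lowest, median and highest of 226, 282 and 383 CPM in wild type. In ssz1Δ it had 534, 593, 516 and 485 CPM and in rpl501Δ 555, 596, 597 and 474 CPM, against the same wild-type libraries. All 16 values thus lay above every wild-type library. The log2 fold changes were 0.77 ± 0.15 (SE; adjusted p = 0.00680), 0.76 ± 0.15 (adjusted p = 0.00375), 0.87 ± 0.14 (adjusted p = 0.00112) and 0.93 ± 0.15 (adjusted p = 0.00142) in the order of the strains above.

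*rlp24* (SPAC22E12.13c, chromosome I, 5043386 to 5044768, - strand) encodes a protein related to the ribosomal protein L24 that holds its place on the 60S precursor. It had 206, 229, 268 and 225 CPM in rpl3703Δ, 212, 226, 195 and 231 CPM in ssz1Δ and 216, 215, 257 and 212 CPM in rpl501Δ, against a lowest, median and highest of 109, 135 and 156 CPM in wild type. No library of these 3 strains overlapped wild type, and the log2 fold changes were 0.76 ± 0.12, 0.66 ± 0.12 and 0.72 ± 0.13 (adjusted p = 0.00292, 0.00264 and 0.00289). *nop10* (SPAP27G11.13c, chromosome I, 1635111 to 1635536, - strand), of the H/ACA snoRNPs, had 410, 452, 417 and 546 CPM in ssz1Δ, against 222, 256 and 300.3 CPM as the lowest, median and highest of wild type. It had 469, 475, 366 and 461 CPM in rpl501Δ and 445, 381, 356 and 394 CPM in the libraries labelled SPBC16A3.17cΔ, all above wild type as well. Its log2 fold changes were 0.85 ± 0.12 in ssz1Δ, 0.81 ± 0.12 in rpl501Δ and 0.65 ± 0.12 in SPBC16A3.17cΔ (adjusted p = 0.000589, 0.00127 and 0.00260).

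**Figure D3:**
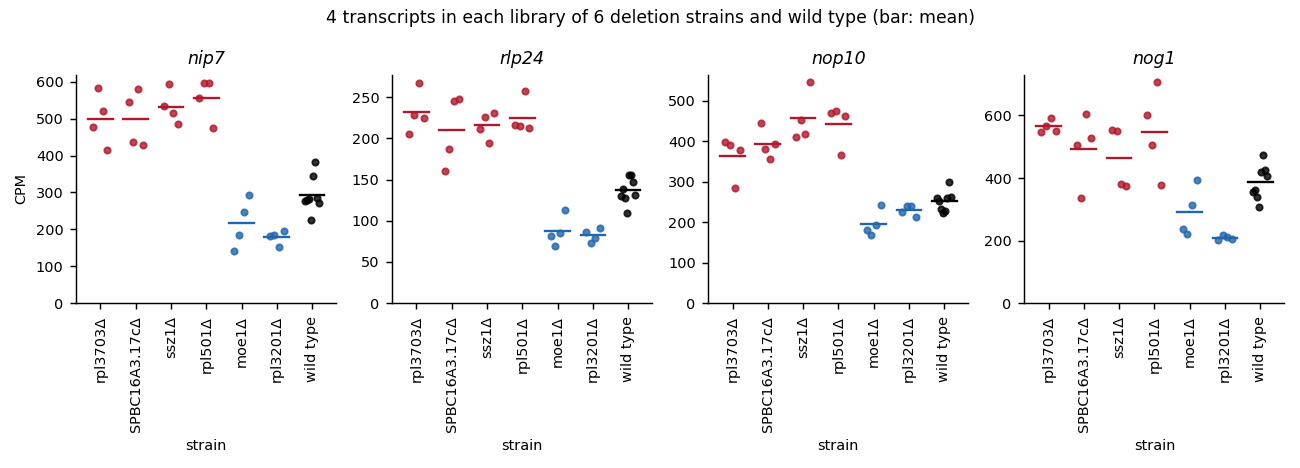
CPM of *nip7*, *rlp24*, *nop10* and *nog1* in each library of 4 deletion strains with many members higher (red), 2 with many lower (blue) and wild type (black). Points are libraries and bars are means. For *nip7* all 16 red points lie above the highest wild-type library of 383 CPM, whereas *nog1* overlaps wild type in some of the red strains and had 4 points between 202 and 219 CPM in rpl3201Δ.

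Among the small subunit members, *utp23* (SPCC18.12c, chromosome III, 1977107 to 1978642, - strand), a nuclease-like protein that in *S. cerevisiae* acts with the snR30 snoRNA, had 58.4, 50.5, 58.0 and 55.2 CPM in the libraries labelled SPBC16A3.17cΔ. In rpl501Δ it had 55.0, 47.3, 54.9 and 54.0 CPM, against 20.2, 28.8 and 38.2 CPM as the lowest, median and highest of wild type, so that neither strain overlapped wild type (log2 fold changes 0.97 ± 0.18 and 0.90 ± 0.18, adjusted p = 0.00227 and 0.00530). *enp1*, whose product stays on the small subunit precursor into the cytoplasm, had 282, 283, 220 and 247 CPM in rpl3703Δ against 99.9, 136 and 193 CPM in wild type. *utp16* had 52.9, 66.8, 74.9 and 62.7 CPM in the libraries labelled SPBC16A3.17cΔ against 23.3, 34.8 and 43.7 CPM. Both were higher in every library, by 0.87 ± 0.17 for *enp1* (adjusted p = 0.00816) and 0.97 ± 0.18 for *utp16* (adjusted p = 0.00218) on the log2 scale.

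Among the large subunit members, *brx1* (SPBC800.06, chromosome II, 262562 to 263669, + strand), a Brix domain protein, had 181, 180, 213 and 146 CPM in rpl3703Δ, against 60.6, 91.0 and 135 CPM as the lowest, median and highest of wild type, a log2 fold change of 1.05 ± 0.21 (adjusted p = 0.00840). *nop52*, the relative of RRP1 of *S. cerevisiae*, had 113, 111, 104 and 94.4 CPM in rpl3703Δ against 40.4, 60.0 and 86.1 CPM (0.86 ± 0.17, adjusted p = 0.00870). Neither gene overlapped wild type. *ebp2*, needed for 60S assembly, had 173, 167, 183 and 196 CPM in rpl501Δ against 65.3, 99.1 and 138 CPM (0.89 ± 0.19, adjusted p = 0.00777), and *rpf2*, which brings the 5S ribosomal RNA particle into the 60S precursor, had 76.0, 67.3, 72.9 and 86.3 CPM in ssz1Δ against 28.9, 40.0 and 54.6 CPM (0.93 ± 0.17, adjusted p = 0.00239). *noc3* had 99.6, 94.6, 114 and 88.0 CPM in the libraries labelled SPBC16A3.17cΔ against 47.9, 63.5 and 73.8 CPM in wild type (0.65 ± 0.14, adjusted p = 0.00468). Outside the large subunit class, *dbp2* had 506, 545, 450.3 and 413 CPM in ssz1Δ against 198, 286 and 311 CPM (0.80 ± 0.14, adjusted p = 0.00190). These 4 genes were above every wild-type library too.

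By class, the calls in rpl3703Δ held 11 of 29 small subunit members, 13 of 22 large subunit members, 0 of 3 snoRNP core members and 1 of 3 others, with class medians of 0.58, 0.74, 0.32 and 0.23. In the libraries labelled SPBC16A3.17cΔ the counts were 8, 11, 1 and 1, in ssz1Δ 5, 11, 1 and 1 and in rpl501Δ 5, 10, 1 and 1. The difference between classes was not tested. Of 66 other ribosome biogenesis genes with names outside the rule, 29 were called higher and 0 lower in rpl3703Δ (median 0.61), 20 and 0 in SPBC16A3.17cΔ, 25 and 0 in ssz1Δ and 20 and 1 in rpl501Δ. Of the cytosolic ribosomal protein genes, 34 of 139 were lower and 1 higher in ssz1Δ, 23 lower and 2 higher of 139 in SPBC16A3.17cΔ, 5 lower and 2 higher of 138 in rpl3703Δ and 4 lower and 1 higher of 138 in rpl501Δ. Without 1 library at a time, the calls ran between 15 and 28 in rpl3703Δ, between 12 and 23 in SPBC16A3.17cΔ, between 13 and 22 in ssz1Δ and between 13 and 18 in rpl501Δ. The values furthest from the main count were the 15 in rpl3703Δ without strain replicate 2, with 16 without strain replicate 3, and the 12 in SPBC16A3.17cΔ without strain replicate 3.

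A further 6 strains had 6 or more members called higher. They were rpl1801Δ (13 of 57, background 12%), rpl3801Δ (13, background 5.8%), rps1002Δ (11, background 4.01%), rpl901Δ (10, background 5.33%), SPBC25H2.15Δ (7, background 3.36%) and rpl1601Δ (6, background 3.96%). Another 10 strains had between 1 and 4, those labelled hcr1Δ (background 3.37%) and SPBC3E7.05cΔ (background 6.48%) with 4 of 57 each, and the share in SPBC3E7.05cΔ was near its background. The other 8 had 12 of 456 pairs higher (2.63%), against 3.04% of all genes in the same strains (1.67% to 6.59% by strain). Since these strains were picked for so few calls, nothing is read from this share. The median over the members was 0.44 in rpl1801Δ, 0.50 in rpl3801Δ, 0.51 in rps1002Δ, 0.43 in rpl901Δ, 0.39 in SPBC25H2.15Δ and 0.31 in rpl1601Δ. All 57 members were above 0 in rpl3801Δ and in rps1002Δ. SPBC25H2.15 is named tsr401 in RefSeq and is itself a gene of the ribosome biogenesis group, and in its deletion *enp1* (0.75), *nsa2* (0.66), *utp16* (0.69), *utp11* (0.73), *ebp2* (0.74), *nop16* (0.85) and *dbp7* (0.67) were called. In the libraries labelled rrp7Δ, which lack another ribosome biogenesis gene by label, 0 of 57 members were called (background 0.988% in both directions) and the members' median was 0.08, but the rrp7 transcript itself, at 28.6 CPM against 26.1 CPM in wild type, overlapped wild type. In rpl1801Δ 73 of 138 cytosolic ribosomal protein genes were lower, beside the 13 members that were higher. Deletions of paralogs are also in the set: rpl902Δ had 0 members called with a median of 0.21 (background 3.59% in both directions), the libraries labelled rpl1602Δ had 0 higher and 1 lower with a median of 0.09 (background 0.384%) and rpl3202Δ had 0 called with a median of 0.02 (background 1.47%). Few genes of any kind were thus called in the libraries labelled rpl1602Δ and in rpl3202Δ. Their differences from rpl901Δ, rpl1601Δ and rpl3201Δ were not tested.

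Over libraries, the strains differed in how evenly the members stood above wild type. The level of a library, the median over the 57 members of log2 (CPM / wild-type mean), was 0.53, 0.65, 0.65 and 0.57 in rpl3703Δ, 0.36, 0.56, 0.66 and 0.57 in SPBC16A3.17cΔ and 0.41, 0.50, 0.66 and 0.59 in ssz1Δ, against a range of -0.46 to 0.29 in wild type. All 4 libraries were above every wild-type library in 6 strains, rpl3703Δ, SPBC16A3.17cΔ, ssz1Δ, rpl501Δ, rpl3801Δ and rps1002Δ. The libraries of rpl901Δ read 0.16, 0.13, 0.75 and 0.68 and those of rpl1801Δ 0.16, 0.79, 0.20 and 0.70, so that part of each strain lay within the wild-type range. Set against the wild-type libraries of the same replicate number, rpl3703Δ was at 0.66, 0.83, 0.50 and 0.32 for numbers 1 to 4, ssz1Δ at 0.55, 0.68, 0.35 and 0.19, rpl901Δ at 0.41, 0.44, 0.62 and 0.40 and rpl1801Δ at 0.41, 1.00, 0.02 and 0.33. All of these values were above 0, and those for number 1 rest on 1 wild-type library.

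**Figure D4:**
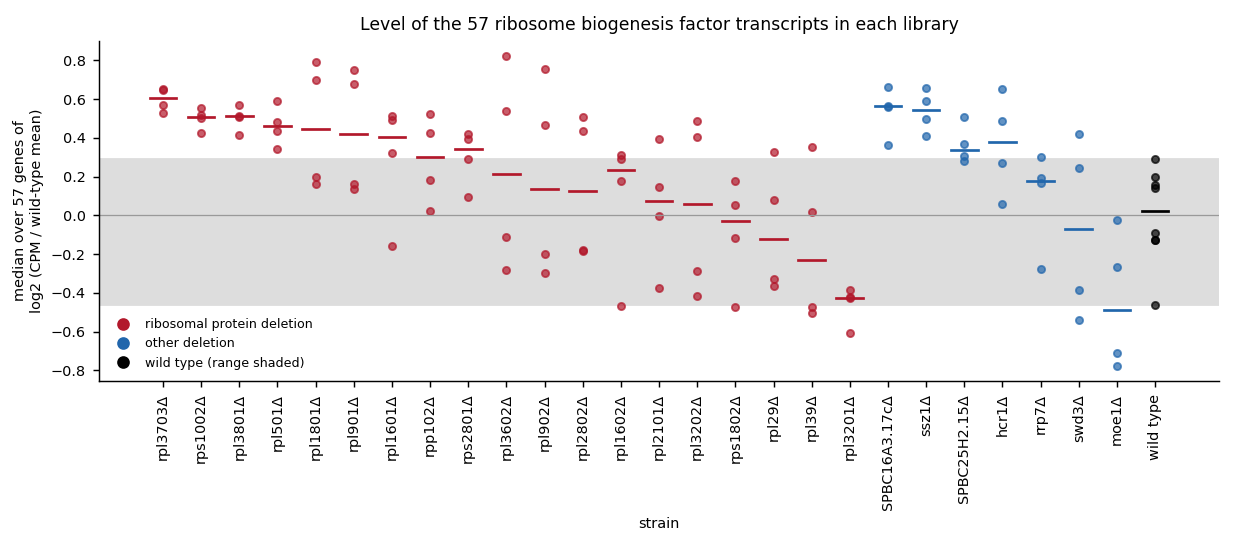
Median over the 57 genes of log2 (CPM / wild-type mean) in each library (points, with the strain median as a bar) of the 19 ribosomal protein deletions (red), 7 other deletions (blue) and wild type (black). The 7 were picked from the 75 other deletions among strains named in the text and do not stand for all of them. The shaded band is the wild-type range of -0.46 to 0.29, above which lie all 4 libraries of rpl3703Δ and 5 other strains.

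In the opposite direction, 12 members were called lower in the libraries labelled rpl3201Δ, which lack a large subunit protein by label, and 5 in moe1Δ, which lacks a subunit of the translation initiation factor eIF3. The background of genes called lower was 4.58% in rpl3201Δ and 2.7% in moe1Δ, and the members' medians were -0.47 and -0.43, with 4 and 2 of the 57 members above 0. The rpl3201 transcript, with a near-identical copy in rpl3202, was at 2154 ± 212 CPM against 2539 ± 154 CPM in wild type and overlapped it. The moe1 transcript was at 54.3 ± 49.7 CPM in moe1Δ against 340 ± 43.0 CPM in wild type (SD, n = 4 and 8). *nog1* (SPBC651.01c, chromosome II, 1236671 to 1239251, - strand) had 202, 219, 210 and 205 CPM in the libraries labelled rpl3201Δ, against 307, 384 and 475 CPM as the lowest, median and highest of wild type, a log2 fold change of -0.87 ± 0.12 (adjusted p = 0.000458). *rlp24* had 86.0, 72.7, 78.7 and 91.4 CPM there, against 109, 135 and 156 CPM (-0.73 ± 0.12, adjusted p = 0.00115), and *nip7* had 182, 186, 152 and 196 CPM, against 226, 282 and 383 CPM (-0.71 ± 0.14, adjusted p = 0.00466). Both genes serve the 60S precursor, and no library of the strain reached wild type. *dbp2* with 157, 155, 141 and 178 CPM against 198, 286 and 311 CPM (-0.80 ± 0.13, adjusted p = 0.00115) and *utp15* of the small subunit processome with 55.1, 56.6, 50.8 and 59.1 CPM against 66.4, 91.8 and 111 CPM (-0.68 ± 0.13, adjusted p = 0.00367) did not overlap wild type either. The other called members were *dbp3*, *noc4*, *enp2*, *rix1*, *utp18*, *rpf2* and *utp22*, between -0.99 and -0.61.

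In moe1Δ the called members were *rlp24*, *utp13*, *utp15*, *rlp7* and *dbp2*, and each of them overlapped wild type. *rlp24* had 81.8, 69.5, 84.8 and 113 CPM against 109, 135 and 156 CPM in wild type (-0.66 ± 0.14, adjusted p = 0.0123). *rlp7* had 71.1, 74.8, 109 and 186 CPM against 151, 216 and 319 CPM (-1.05 ± 0.28, adjusted p = 0.0357). The fourth library was the highest in each of them, and the number called was 14 without strain replicate 4, 1 without replicate 1 or 2, and 3 without replicate 3 or without the wt1 library of number 3. In the libraries labelled rpl3201Δ it was 19 without the wt2 library of well A2 with number 2 and 8 without strain replicate 2. With reads divided by the reads on genes, 0 of these members were called in either strain. The median of all genes was then at 0.51 in rpl3201Δ and 0.10 in moe1Δ, and relative to the median of all genes the members' medians were -0.50 in rpl3201Δ and -0.42 in moe1Δ, close to -0.51 and -0.43 on the deposited scaling. Against wild-type libraries of the same number the members' medians were below 0 for all 4 numbers in both strains (-0.24, -0.29, -0.68 and -0.73 in rpl3201Δ and -0.58, -0.45, -0.39 and -0.23 in moe1Δ). The values for number 1 rest on 1 wild-type library. In the libraries labelled rpl3201Δ, 74 of 138 cytosolic ribosomal protein genes were lower and 6 of 17 genes of the core stress response were higher (median 0.65), and their part in the result was not tested. In moe1Δ 5 of 139 cytosolic ribosomal protein genes were lower and 1 of 17 stress genes was higher.

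In the libraries labelled swd3Δ, for a subunit of the histone methylating complex COMPASS, 2 members were called lower (background 1.04%), *rlp1* at -0.97 and *utp15* at -0.63, and swd3 itself was not lower there (9.15 CPM against 2.28 CPM in wild type). A single member was lower in each of 9 more strains, 9 of 513 pairs (1.75%), against 1.29% of all genes in the same strains (0.165% to 3.47% by strain), and since the strains were picked for such a call nothing is read from this share. *utp8* in the libraries labelled sft1Δ was lowest of these, with 14.1, 13.4, 20.6 and 3.95 CPM against 20.2, 35.5 and 45.4 CPM in wild type (-1.55 ± 0.37, adjusted p = 0.268), and *utp18* had 28.9, 25.4, 50.0 and 7.54 CPM in those labelled cbf11Δ against 39.5, 61.5 and 71.2 CPM (-1.30 ± 0.38, adjusted p = 0.258). In both, 1 library lay far below the others and the adjusted p was above 0.05.

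Across the 94 strains, the members most often called higher were *utp16* (11 strains), *dbp7*, *enp1* and *nsa2* (10 each), and *ebp2* and *nip7* (9 each). *nsa2* and *ebp2* serve the 60S precursor, and *dbp7* encodes one of its helicases. *utp16* ranged between 0.65 in the libraries labelled SPBC3E7.05cΔ and 0.97 in those labelled SPBC16A3.17cΔ where it was called. *nip7* was the only 1 of these 6 that was also lower in a strain, rpl3201Δ. Called lower most often was *rlp1*, in 7 strains and higher in 0, and this gene is the one member with a DNA repair role. Its log2 fold change was above 0 in only 8 of the 94 strains, with a median of -0.27 over strains. It thus read below the shared wild-type libraries in most strains, called or not. It had 4.92, 2.99, 4.47 and 4.93 CPM in the libraries labelled amo1Δ, in which the amo1 transcript was above wild type (63.8 CPM against 31.8 CPM), against 8.08 to 15.0 CPM over the wild-type libraries (-1.38 ± 0.18, adjusted p = 0.00168). With adjustment over all genes, *rlp1* remained called in amo1Δ, swd3Δ (adjusted p = 0.0273) and rpl3703Δ (adjusted p = 0.0407), and not in rad25Δ and the libraries labelled dbr1Δ, rpl1602Δ and apl2Δ, where the log2 fold changes were -0.64, -0.84, -0.70 and -0.67. The dbr1 transcript was at 116 CPM in the libraries labelled dbr1Δ against 16.1 CPM in wild type. The next were *utp15* (4 strains) and *dbp2*, *rlp24* and *utp18* (2 each). Over all strains *utp15* and *utp18* were above 0 in 14 and 15, with medians of -0.17 and -0.30. By contrast, *rlp24* and *dbp2* were above 0 in 39 and 49 strains. A few members stood out in other strains, chosen here after their values were seen. *utp14* was higher in mcl1Δ than in wild type by 1.09 ± 0.21 on the log2 scale (SE, adjusted p = 0.00432), and *rix1* was at 61.8 ± 3.35 CPM in the libraries labelled SPBC17A3.06Δ against 31.5 ± 5.43 CPM (0.99 ± 0.15, adjusted p = 0.00287; SD, n = 4 and 8), where the SPBC17A3.06 transcript was not lower (6.12 CPM against 1.26 CPM).

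The strains were then compared with each other, the 19 ribosomal protein deletions against the 75 other deletions, with 1 mean a strain and without the wild-type libraries, to ask whether loss of a ribosomal protein goes with a higher level of the assembly factors. Of the 57 members, 52 were higher and 0 lower at an adjusted p below 0.05 (limma over 5021 genes), against 21.6% of all genes higher and 20.6% lower. All 57 differences were above 0, between 0.01 and 0.50 on the log2 scale with a median of 0.25, where the median of all genes was -0.00. Strain by strain, the members' median against wild type was above 0 in 15 of 19 ribosomal protein deletions and in 20 of 75 other deletions, and the middle strain was at 0.23 and -0.09. The ribosomal protein deletions were chosen for the set together with the others, and they are not a sample of all such genes.

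*rlp7* (SPAC664.06, chromosome I, 1712784 to 1713921, + strand), a relative of ribosomal protein L7 that sits near the ITS2 spacer of the 60S precursor, had the largest difference. This gene overlaps 2 genes on the same strand and 1 on the other in the deposited coordinates. Its strain means had a lowest, median and highest of 142, 245 and 419 CPM in ribosomal protein deletions and of 90.6, 167 and 379 CPM in other deletions (0.50 ± 0.10 SE, adjusted p = 0.000137). *utp3* (SPBC3B8.09, chromosome II, 3375459 to 3377375, - strand), of the small subunit processome, was at 64.3, 111 and 163 CPM against 54.6, 77.9 and 157 CPM (0.42 ± 0.08, adjusted p = 0.000116), and its fold change against wild type was above 0 in 17 of the 19 strains. *ebp2* was at 64.5, 125 and 182 CPM against 61.2, 89.8 and 181 CPM (0.41 ± 0.08, adjusted p = 0.000217). The ranges of the groups overlapped for each of these. *tsr2*, a chaperone of the small subunit protein Rps26 in *S. cerevisiae*, was at 75.5, 116 and 184 CPM against 71.5, 94.5 and 155 CPM (0.31 ± 0.06, adjusted p = 0.000217), and *nop4*, an RNA-binding protein of the 60S precursor, at 26.9, 42.3 and 60.2 CPM against 24.7, 33.0 and 54.1 CPM (0.32 ± 0.07, adjusted p = 0.000207). The next by p were *dbp5* (0.19 ± 0.04), *nop9* (0.32 ± 0.07), *dbp9* (0.35 ± 0.07), *utp5* (0.28 ± 0.06) and *utp11* (0.24 ± 0.05), with adjusted p between 0.000217 and 0.000339. Not called were *utp10* (0.06, adjusted p = 0.273), *utp15* (0.10, adjusted p = 0.0738), *utp22* (0.08, adjusted p = 0.114), *rix1* (0.12, adjusted p = 0.182) and *rlp1* (0.01, adjusted p = 0.949).

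**Figure D5:**
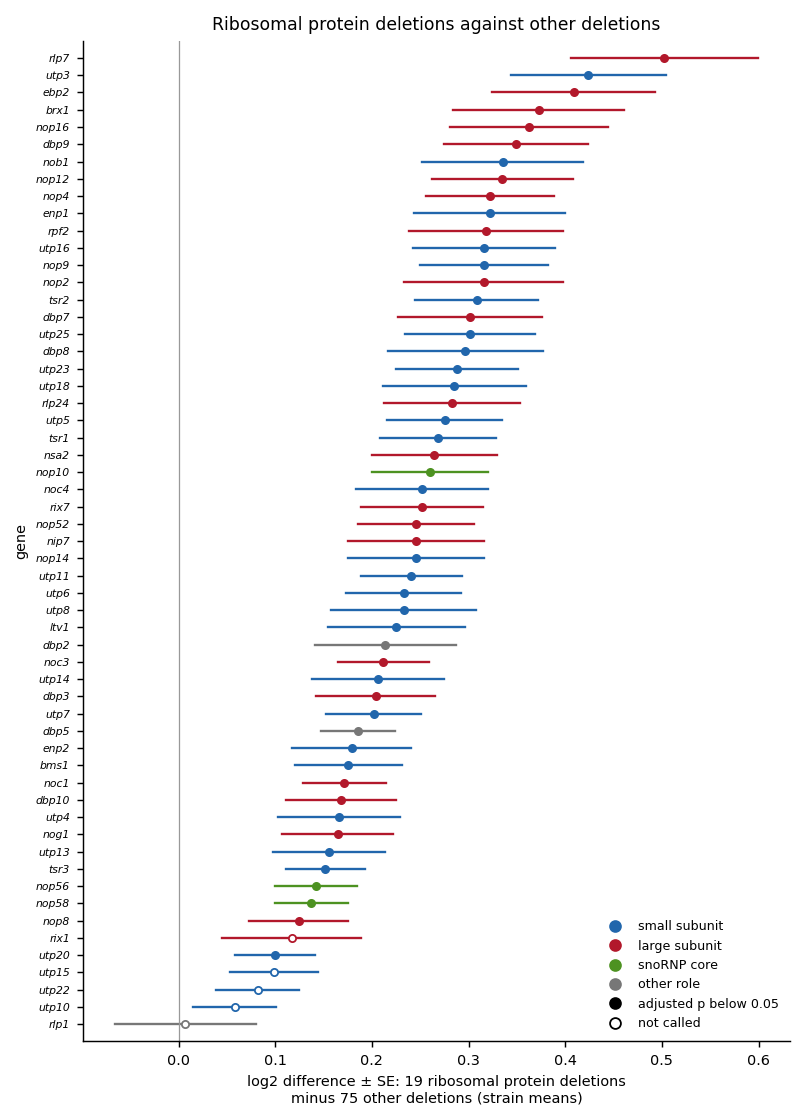
Difference in mean log2 CPM, 19 ribosomal protein deletions minus 75 other deletions, for each of the 57 genes with its standard error, coloured by class. Filled points passed an adjusted p below 0.05 (52 genes), and every point lies right of 0, between 0.01 for *rlp1* and 0.50 for *rlp7*.

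By class, 26 of 29 small subunit members were higher with a median of 0.24, 21 of 22 large subunit members with a median of 0.27, 3 of 3 snoRNP core members with a median of 0.14 and 2 of 3 others. Of 65 other ribosome biogenesis genes, 45 were higher and 2 lower (median 0.23), among them *puf6* (0.44 ± 0.08) and *rrp16* (0.52 ± 0.10), and of 13 genes of RNA polymerase I, which makes the ribosomal RNA precursor, 7 were higher and 0 lower, *rpa43* (0.33 ± 0.06) and *rpa49* (0.35 ± 0.07) among them. Cytosolic ribosomal protein genes were split, with 18 higher and 27 lower of 139. The 139 include the genes deleted in these strains, and their own deletions were not left out. Genes of the core stress response (0 higher, 8 lower of 17, median -0.19), of glucose limitation (0 and 4 of 7, median -0.34) and of nitrogen limitation (0 and 6 of 8, median -0.35) had no gene called higher, and *tps1* of trehalose synthesis (-0.44 ± 0.12) and the protease gene *isp6* (-0.44 ± 0.09) were among the lower ones. The part of growth or stress in the result was not tested.

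The position on the plate and the replicate number moved with this contrast. Plate row A held 10 of the strains, 6 of them ribosomal protein deletions. Within row A (6 against 4 strains) 24 members were higher, against 3.9% of all genes, with a median difference of 0.40. Outside row A (13 against 71 strains) 5 members were higher, *utp3*, *nop10*, *dbp5*, *rlp7* and *dbp9*, against 3.51% of all genes, 35 had p under 0.05 before adjustment, and all 57 differences were above 0 with a median of 0.16. With the plate row as a term in the fit 42 members were higher, against 17.2% of all genes, with a median of 0.21. In the libraries of replicate number 1 alone 40 members were higher (median 0.30, 11.2% of all genes), in those of number 2 it was 43 (0.33, 12.8%), in those of number 3 it was 33 (0.25, 10.4%) and in those of number 4 it was 13 (0.12, 6.94%). These splits were chosen after the data were seen. No member was called lower in any of them, and between 51 and 57 of the 57 differences were above 0 in each. Using only the 27 strains whose deleted transcript was below wild type, 14 of them ribosomal protein deletions, 48 members were higher. The share of all genes is not given for that setting, so nothing is read from the count.

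Large subunit deletions were compared with small subunit deletions in the same fit, to ask whether the subunit that lost a protein matters. No member was called (0 of 57, against 0.0199% of all genes), and 1 member had p under 0.05 against 6.69% of all genes, or 336. That member was *nop56*, at -0.22 ± 0.10 for large minus small (adjusted p = 0.682). *utp22* (-0.17), *noc1* (0.16), *enp2* (-0.23) and *utp23* (-0.22) followed, and the median over the members was -0.07 against -0.01 for all genes. The small subunit side holds 3 strains, and a missing call does not show that the sides act alike.

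Over the 94 strain means the members varied together. The median Pearson r over 1596 pairs of members was 0.69, with 99.0% of the pairs above 0, against a median of -0.00 over pairs of all genes. The strains share plates, replicate numbers and library scaling, and r is given as a description. Members and cytosolic ribosomal protein genes had a median r of -0.08, while the 139 ribosomal protein genes had 0.57 among themselves. Within classes the median r was 0.66 for the small subunit, 0.78 for the large subunit and 0.70 for the snoRNP core. With members of the other classes it was 0.69, 0.71 and 0.64, so small subunit members were no more alike among themselves. *ebp2* (0.96), *nop9* (0.95) and *brx1* (0.94) were closest to the mean of the other members, and *rlp1* (0.08), *nop8* (0.52) and *tsr3* (0.55) were furthest from it. Outside the members, the genes whose strain means were closest to the members' mean were *mak16* (r = 0.965), SPAC1142.04, named noc201 in RefSeq (0.965), *kri1* (0.961), *lcp5* (0.958) and *spb1* (0.951), and all 5 are known as ribosome biogenesis genes. The SD over strains was 0.28 on the log2 scale for the middle member and 0.23 for the middle gene of the table.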

How the data were processed

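RNA was measured in 384 libraries of 94 deletion strains and wild type by 3′ mRNA-Seq. By the submitters' processing notes and the study's methods, the authors aligned reads with STAR (2.6.1b) to ASM294v2, counted reads on genes (HTSeq 0.9.0 and Subread 1.6.2 are both named) and deposited CPM, which the table holds without decimal points for 78.8% of 2787456 values; the unit is therefore given as other. Since 1 read is worth 0.298 to 0.848 CPM depending on the library, only whole read numbers were allowed, which gave back the point. Where several places were possible (10.1%), the one nearest to the other libraries was taken, and 0.0720% were close choices. On simulated data 0.0324% of 348432 values were placed wrongly. Those data were drawn around the restored reads, so this rate takes the restored places as right. A count of 0 allows 3 reads, 0.893 to 2.54 CPM, for counting error only. Groups follow the strain field of the labels; a description field calling some wild-type libraries knockouts was not used.

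CPM under the study's floor, just above 1 CPM, were removed, and genes were kept, without imputation, if at least 75% of values remained (3 of the 4 strain libraries, 6 of the 8 of wild type). The test was limma (3.58.1, R 4.3.3) on log2 CPM without a pseudocount, a call needing a log2 fold change of 0.6 and p of at most 0.005; adjusted p are Benjamini-Hochberg over all genes. Strain contrasts used strain means. The scripts were tested on simulated data. As the values are restored CPM rather than a count table, no count model was the main test. The authors' other comparisons were not used. The members and the gene lists were chosen with earlier results of these data known. Named are the members highest and lowest in wild type, those called in most strains, those with the smallest p in the strains with most calls and in each contrast, and the genes most like their mean. Alternatives covered the floor, pseudocount, scaling, threshold, wild-type well, replicate block, left-out libraries, a common fit and voom. RefSeq (ASM294v3) gave names and promoters only. Of the 6846 genes matched by locus tag, 99.5% had at least 1 end at the deposited coordinates and 1997 genes had both.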

Additional observations from a re-analysis of the deposited data

Results flagged for a closer look

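Among 68 groups of 4 or 8 values of the named genes, 4 held a library far from the others in relation to the range of its group, and chance alone flags about 1 in 20 groups. In rpl501Δ, *nop10* had 366 CPM in replicate 3, where the nearest library had 461 CPM and the highest 475 CPM. In the same library *rlp24* had 257 CPM, above a nearest value of 216 CPM and a lowest of 212 CPM. *utp23* had 47.3 CPM in replicate 2 of rpl501Δ, with the others between 54.0 and 55.0 CPM. All 12 of these rpl501Δ values were nevertheless above every wild-type library. In wild type, *utp13* had 11.6 CPM in the wt2 library of well A2 with number 2, with the nearest library at 17.3 CPM and the highest at 22.1 CPM, and this is also the library with the lowest level of the members.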

How the results depend on the processing

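Of 1174 values of single named genes under other settings, 995 kept their direction and side of the threshold, 179 kept the direction without the call and 0 reversed. With reads divided by the reads on genes there were 366 calls of a higher and 5 of a lower member over all strains, 28 higher in ssz1Δ and 0 lower in rpl3201Δ, moe1Δ and swd3Δ. In swd3Δ 1 member was lower with log2(CPM + 1) and no floor, and 1 with adjusted p below 0.05. With wild type of well A1 only there were 101 higher and 14 lower calls, 12 in SPBC16A3.17cΔ, 1 in moe1Δ and 1 in swd3Δ. With well A2 only there were 69 and 8, with 11 higher in rpl3703Δ, 10 in SPBC16A3.17cΔ and 9 in rpl501Δ, and 7 lower in rpl3201Δ and 0 in moe1Δ and swd3Δ. In 1 fit over all groups 16 were higher in rpl3703Δ and 11 in rpl501Δ. Without 1 replicate or library, the ranges were 104 to 198 higher and 13 to 113 lower calls (104 to 158 and 13 to 113 without a strain replicate, 125 to 198 and 19 to 47 without a wild-type library), 15 to 28 in rpl3703Δ, 12 to 23 in SPBC16A3.17cΔ (12 to 21 without a strain replicate), 13 to 22 in ssz1Δ, 13 to 18 in rpl501Δ, 8 to 19 in rpl3201Δ, 1 to 14 in moe1Δ, 1 to 2 in swd3Δ, and 48 to 52 higher and 0 lower in the ribosomal protein contrast. That contrast gave 33 with replicate number 3 alone, 13 with number 4, 24 in plate row A and 5 outside it. Shares of all genes called are not given in this section, so its counts describe the members only. The causes were not tested beyond the values given.

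Samples of the same replicate number deviated together for 88.3% of pairs (median r 0.27 over 4593 transcripts, against -0.10 for different numbers), not for every pair. With the replicate block, in libraries whose number is unique in their group and well, 164 calls were higher and 74 lower, with 20 lower in rpl3201Δ, 12 in moe1Δ and 1 in swd3Δ. The same libraries without the replicate block gave 93 and 59, with 15 higher in rpl3703Δ, 13 in SPBC16A3.17cΔ and 11 in rpl501Δ, and 26 lower in rpl3201Δ and 9 in moe1Δ. The replicate number and row settings of the ribosomal protein contrast were chosen after seeing the data.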
